A study of Mus musculus with 6 samples.

Results

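The genes of the condensin complexes, the topoisomerase gene Top2a and the proliferation-associated gene Mki67 were examined in small pre-B cells of mouse bone marrow. The 10 genes were chosen by symbol: Smc2, Smc4, Ncapd2, Ncapg, Ncaph, Ncapd3, Ncapg2, Ncaph2, Top2a and Mki67. All 10 were among the 49997 genes of the count table and among the 7792 that passed the filter on low counts. RNA was profiled in wild-type (WT) mice and in mice of the ΔrsCBE genotype, both C57BL/6 and between 6 and 12 weeks of age, with 3 libraries per genotype. The cells were purified by flow cytometry directly from the animals, with no treatment, culture or transgene named in the labels. The prefix Δ conventionally marks a deletion. The labels do not give the deleted interval, and they do not say whether the libraries of a genotype came from separate animals, so the p-values below measure the spread between these libraries.

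Condensins are ring-shaped complexes that use ATP to extrude loops of DNA and so compact chromosomes for mitosis. Both forms share the ATPase pair encoded by Smc2 and Smc4. Condensin I adds the subunits encoded by Ncapd2, Ncapg and Ncaph and reaches chromosomes once the nuclear envelope has broken down, and condensin II adds those of Ncapd3, Ncapg2 and Ncaph2 and is nuclear throughout the cell cycle. Top2a encodes the type II topoisomerase that untangles sister DNA molecules, and Mki67 encodes a coat protein of mitotic chromosomes that is widely used as a proliferation marker. Large pre-B cells divide, and small pre-B cells, their progeny, have mostly left the cell cycle while they rearrange their light chain genes.

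Total counts ranged from 428106 to 1300805 per library, and 3 counts, taken as the detection floor, corresponded to between 2.38 and 7.36 CPM (read counts scaled to library size with TMM factors). The 10 marker genes of small pre-B cells were all tested and 0 were called by edgeR or DESeq2 (2 at an unadjusted p-value under 0.05); their summed level was 8652 to 10088 CPM in WT and 9757 to 10079 CPM in ΔrsCBE. Of the 8 marker genes of pro-B and large pre-B cells, Igll1, Vpreb1, Dntt, Kit and Myc had 6 to 15 counts over all libraries, and the summed level of the list was 476 to 537 CPM in WT and 472 to 589.8 CPM in ΔrsCBE. The level of this list was set mainly by Il7r, with 455 ± 20.1 CPM in WT against 479 ± 59.5 CPM in ΔrsCBE (SD, n = 3). Of the 7 markers each of T and NK cells and of erythroid cells, 6 were at 0 in every library, and their summed levels did not exceed 1.58 and 0.792 CPM. The myeloid list had 2 of 7 genes at 0 and a summed level of 53.1 to 83.4 CPM in WT and 54.5 to 68.2 CPM in ΔrsCBE, carried mostly by Itgam; Lyz2 and S100a9, with 8 and 6 counts in all, were found in each ΔrsCBE library and were at 0 in each WT library. The mature B list had Ighd at 0 and summed to 391 to 589 CPM in WT and 393 to 477 CPM in ΔrsCBE. The plasma cell list, which contains Irf4 as the small pre-B list does, summed to 1133 to 1258 CPM in WT and 1134 to 1430 CPM in ΔrsCBE. Sex is not given in the labels and was mixed: ΔrsCBE replicates 2 and 3 had 1603 and 1430 Xist counts and no count of 4 Y-linked genes, whereas ΔrsCBE replicate 1 and all WT libraries had at most 1 Xist count and 121 to 452 Y-linked counts. Genotype and sex can therefore be told apart only through ΔrsCBE replicate 1.

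Expression of all 10 genes was lower in ΔrsCBE than in WT: their log2 fold changes were below 0, as were those of 48.2% of all tested genes, and for each of them every ΔrsCBE library lay below every WT library. The test was passed by 7 genes, all lower: the ATPase pair Smc2 and Smc4, the condensin I subunits Ncapd2, Ncapg and Ncaph, and Top2a and Mki67. With sex as a covariate 3 of the 10 passed, and without ΔrsCBE replicate 1 or without ΔrsCBE replicate 3 the count was 4. Among all tested genes 1.69% were called in either direction, 1.49% were called lower, and 8.92% had every ΔrsCBE library below every WT library. Without adjustment, 9 of the 10 were lower at p under 0.05, against 6.02% of all tested genes. The condensin II subunits Ncapd3, Ncapg2 and Ncaph2 did not pass. The median log2 fold change was -0.88 over the 10 genes and 0.01 over all tested genes. Calls were made with edgeR's quasi-likelihood test at a Benjamini-Hochberg adjusted p-value under 0.05 over the 7792 genes. In RNA from bulk samples, fewer cells expressing these genes and less of their RNA per cell cannot be told apart.

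**Figure D1:**
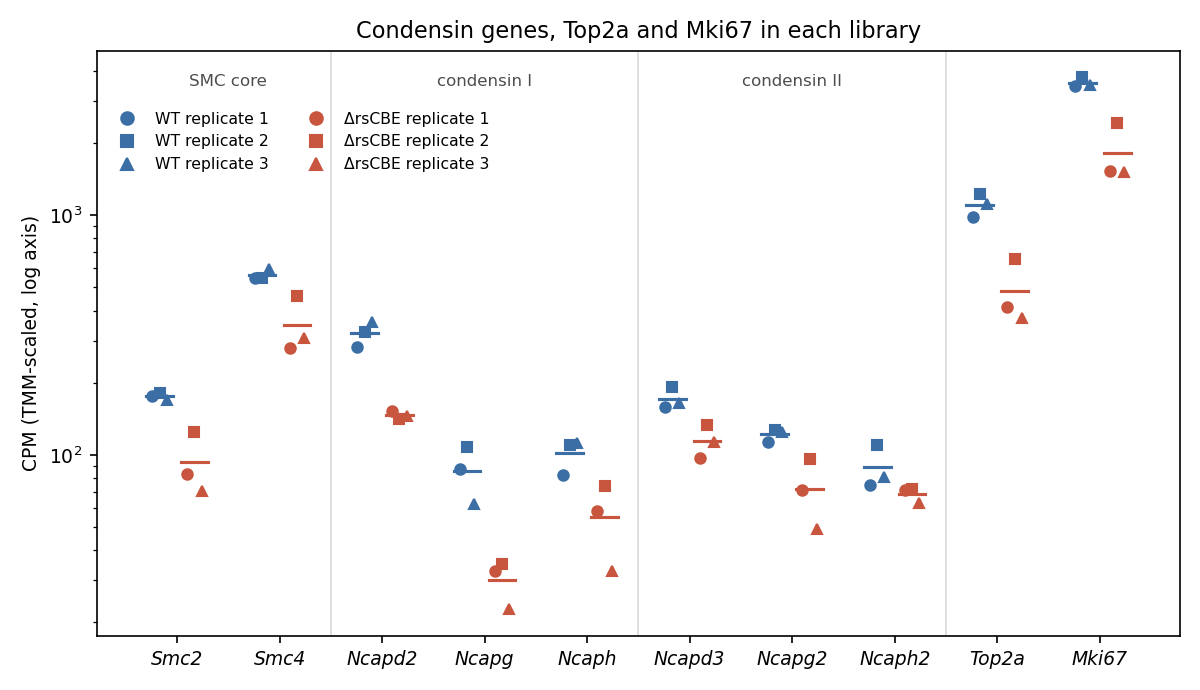
Level of each gene in each library, in TMM-scaled CPM on a log axis; blue is WT, red is ΔrsCBE, symbols mark replicate numbers and bars are means of 3 libraries. All red points lie below all blue points of the same gene, with the widest gap in CPM for Mki67 (1521 to 2418 against 3472 to 3759) and the narrowest for Ncaph2 (63.1 to 72.3 against 74.6 to 110.3).

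Promoter windows of the 10 genes were read for the letters of elements known from cell-cycle genes. The windows, taken from RefSeq on GRCm38.p6, hold 300 bases, 250 before and 50 after the start of the gene, and matched 9 of the 10 genes by symbol; the exception was Smc4, and Ncapd3 had windows at 2 starts. Searched on both strands were the cell-cycle genes homology region (CHR; TTTGAA or TTCGAA), the CCAAT box (CCAAT) and an E2F site (the form TTCCCGC, the form TTCGCGC, the form TTGCCGC or the form TTGGCGC). The windows below were chosen by outcome: Top2a, Mki67 and Ncapd2 passed the test, and Ncapd3, the condensin II counterpart of Ncapd2, did not. Ncapd3 was nevertheless lower in ΔrsCBE, with a log2 fold change of -0.56 (95% interval -0.88 to -0.23). Whether motif letters go with the fall was not tested. TTCGAA reads the same on both strands and was counted once. Capitals mark CHR and CCAAT letters on either strand, and each sequence runs 5′ to 3′ on the strand of its gene.
Top2a (chr11:99024140-99024439, minus strand): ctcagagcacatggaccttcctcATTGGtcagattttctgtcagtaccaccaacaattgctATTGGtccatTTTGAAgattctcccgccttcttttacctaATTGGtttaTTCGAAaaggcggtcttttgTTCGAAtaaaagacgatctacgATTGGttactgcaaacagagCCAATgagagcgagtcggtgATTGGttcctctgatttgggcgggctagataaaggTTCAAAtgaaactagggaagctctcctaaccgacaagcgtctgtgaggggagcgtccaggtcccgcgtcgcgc
Mki67 (chr7:135716330-135716629, minus strand): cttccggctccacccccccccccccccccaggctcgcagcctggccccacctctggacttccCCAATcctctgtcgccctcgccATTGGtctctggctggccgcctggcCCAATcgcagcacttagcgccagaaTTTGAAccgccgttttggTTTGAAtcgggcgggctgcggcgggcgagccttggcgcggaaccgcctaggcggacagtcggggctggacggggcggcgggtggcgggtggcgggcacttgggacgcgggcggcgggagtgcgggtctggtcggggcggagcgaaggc
Ncapd2 (chr6:125191537-125191836, minus strand): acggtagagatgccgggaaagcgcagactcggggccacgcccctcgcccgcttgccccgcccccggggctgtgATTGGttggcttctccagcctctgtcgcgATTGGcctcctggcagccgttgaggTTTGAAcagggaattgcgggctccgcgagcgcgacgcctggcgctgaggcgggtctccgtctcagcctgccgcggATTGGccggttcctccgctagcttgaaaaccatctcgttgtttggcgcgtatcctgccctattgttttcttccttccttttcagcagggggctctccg
Ncapd3 (chr9:27029915-27030214, plus strand): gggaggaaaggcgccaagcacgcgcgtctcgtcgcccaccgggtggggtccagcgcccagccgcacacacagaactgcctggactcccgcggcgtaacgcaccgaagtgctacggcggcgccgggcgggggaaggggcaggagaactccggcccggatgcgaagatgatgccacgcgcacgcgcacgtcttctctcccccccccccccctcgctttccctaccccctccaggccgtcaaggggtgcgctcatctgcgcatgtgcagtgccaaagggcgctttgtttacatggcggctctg
The Top2a window held 4 CHR and 6 CCAAT matches, the Mki67 window 2 and 3, and the Ncapd2 window 1 and 3. The Ncapd3 window shown held neither. At its other start, Ncapd3 had 1 CHR match, located 249 bases before that start.

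CHR letters occurred in windows of 8 of the 9 genes, among them the uncalled Ncapg2, Ncaph2 and, at its other start only, Ncapd3. A CCAAT box occurred in 5. Letters of both the CHR and the CCAAT box occurred together in the windows of 5 of the 9 genes, namely Top2a, Mki67, Ncapd2, Ncapg and Smc2. The windows of Ncapg2 and Ncaph2, which were not called, each held 1 CHR match and no CCAAT box. The window of Ncaph, which was called, held neither. E2F letters occurred in windows of 6 of the 9 genes. Of all 32851 windows, 19.2% held CHR letters, 37.4% a CCAAT box, 7.52% both and 9.57% E2F letters. Over windows of tested genes these shares were 14.4%, 37.9%, 6.22% and 17.7%. Over the 107 windows of genes called lower, which include those of Smc2, Ncapd2, Ncapg, Ncaph, Top2a and Mki67, they were 58.9%, 69.2%, 47.7% and 36.4%. The matches describe letters and were not tested as sites.

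The ATPase pair shared by both condensins fell in ΔrsCBE. Smc2 (chromosome 4, 52439243 to 52488260, plus strand; gene coordinates are from GENCODE M21 on GRCm38) was at 175, 181 and 169 CPM in the WT libraries and 83.5, 125 and 70.7 CPM in the ΔrsCBE libraries, here and below in the order of replicates 1, 2 and 3. The WT libraries lay within a narrow range, and ΔrsCBE replicate 2 was the highest of its genotype. Its log2 fold change, ΔrsCBE over WT, was -0.89 (standard error, SE, of 0.18, edgeR adjusted p = 0.00500). Smc4 (chromosome 3, 69004738 to 69034623, plus strand) was at 545, 544 and 596 CPM in the WT libraries and 278, 459.9 and 308 CPM in the ΔrsCBE libraries. Here too ΔrsCBE replicate 2 stood nearest to WT, at 81.9% of the WT mean against 49.6% and 54.9% in replicates 1 and 3. The log2 fold change of Smc4 was -0.69 (SE 0.14, edgeR adjusted p = 0.00887). Smc2 was not called without ΔrsCBE replicate 3 (adjusted p-value 0.0755), nor was Smc4 (0.115), which was also lost without WT replicate 3 (0.0924).

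All 3 condensin I subunits fell. Ncapd2, which encodes a HEAT-repeat subunit (chromosome 6, 125168007 to 125191701, minus strand), was at 282, 326 and 359 CPM in the WT libraries and 153, 142 and 145 CPM in the ΔrsCBE libraries. Its ΔrsCBE libraries lay close together, at 47.3%, 43.9% and 45.1% of the WT mean, and unlike the other 9 genes it was not highest in ΔrsCBE replicate 2. With a log2 fold change of -1.15, a standard error of 0.13 and an edgeR adjusted p-value of 2.24e-05, it ranked 2 among all 7792 genes by p-value. It was called under each of the 15 alternatives, with log2 fold changes from -1.23 to -1.04. Ncapd2 overlaps the small Cajal body RNA gene Scarna10 and the gene Gm28967 on the same strand. Its exons share 237 bases with other genes, not divided here between these genes. Scarna10 had 37 counts over all libraries against 1138 for Ncapd2.

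Ncapg, which encodes the other HEAT-repeat subunit of condensin I (chromosome 5, 45669919 to 45700546, plus strand), was at 87.6, 108 and 62.6 CPM in the WT libraries and 32.7, 35.1 and 22.7 CPM in the ΔrsCBE libraries. The counts behind these values were 44 to 79 in WT and 18 to 34 in ΔrsCBE. Its log2 fold change of -1.42 (standard error 0.25, edgeR adjusted p = 0.00117) was the lowest of the 10, corresponding to 37.4% of the WT level with a 95% interval of 26.4% to 53.1%. Ncapg was not called with sex as a covariate (adjusted p-value 0.0729). Ncapg shares 944 exonic bases with Lcorl on the opposite strand, and whether counting used the strand is not stated; Lcorl had a log2 fold change of 0.38 (SE 0.20, edgeR adjusted p = 0.543). Ncaph, which encodes the kleisin that closes the condensin I ring (chromosome 2, 127103809 to 127133954, minus strand), was at 82.7, 110.3 and 112 CPM in the WT libraries and 58.1, 74.4 and 32.8 CPM in the ΔrsCBE libraries. The highest ΔrsCBE library was 8.33 CPM below the lowest WT library. The log2 fold change of Ncaph was -0.87 with a standard error of 0.23, and its edgeR adjusted p-value of 0.0480 was just under the threshold. Ncaph was not called by the DESeq2 Wald test (adjusted p-value 0.162) or without WT replicate 2 (0.138), WT replicate 3 (0.345), ΔrsCBE replicate 1 (0.0566) or ΔrsCBE replicate 3 (0.345). Its log2 fold change ranged from -1.16 to -0.62 over the 15 alternatives.

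Of the 3 condensin II subunits 0 passed the edgeR test or the DESeq2 Wald test, although all had lower values in ΔrsCBE and 2 had an unadjusted edgeR p-value under 0.05. Ncapd3, a HEAT-repeat subunit gene (chromosome 9, 27030175 to 27095315, plus strand), was at 159, 191 and 164 CPM in the WT libraries and 96.8, 133 and 114 CPM in the ΔrsCBE libraries. Its log2 fold change was -0.56 with a 95% interval of -0.88 to -0.23 (edgeR adjusted p = 0.0735). Ncapg2, the other HEAT-repeat subunit gene (chromosome 12, 116405402 to 116463731, plus strand), was at 114, 128 and 124 CPM in the WT libraries and 71.4, 96.1 and 49.3 CPM in the ΔrsCBE libraries, and its log2 fold change was -0.73 with an interval of -1.14 to -0.33 (edgeR adjusted p = 0.0559). Without ΔrsCBE replicate 2, Ncapd3 and Ncapg2 were called (adjusted p-values 0.0201 and 0.00190). Ncapg2 was also called without a count filter (0.0125), with a minimum of 1 CPM in 3 libraries (0.0144) and with a replicate block (0.0391). Over the 15 alternatives the adjusted p-values ranged from 0.0201 to 0.307 for Ncapd3 and from 0.00190 to 0.412 for Ncapg2, both highest without ΔrsCBE replicate 3. Ncaph2, the kleisin gene of condensin II (chromosome 15, 89355719 to 89372826, plus strand), was at 74.6, 110.3 and 80.8 CPM in the WT libraries and 71.4, 72.3 and 63.1 CPM in the ΔrsCBE libraries. The groups were separated by 2.29 CPM, less than the SD of 19.1 CPM among the WT libraries. Its log2 fold change was -0.32 with a 95% interval of -0.71 to 0.08 (edgeR adjusted p = 0.630), the smallest change of the 10, and it was called under no alternative. Ncaph2 shares 829 exonic bases with Sco2 and Tymp on the opposite strand, which had 0 and 3 counts over all libraries.

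**Figure D2:**
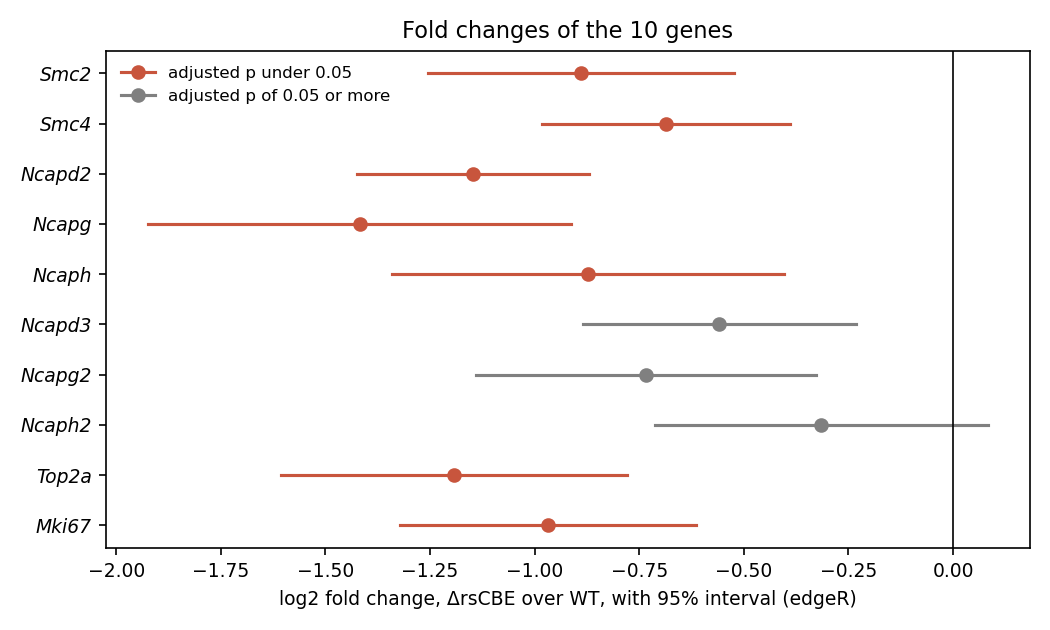
Log2 fold change of each gene, ΔrsCBE over WT, with its 95% interval from edgeR; red marks adjusted p-values under 0.05. All point estimates are below 0, from -1.42 (Ncapg) to -0.32 (Ncaph2), and the interval of Ncaph2 alone includes 0.

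Whether condensin I genes changed more than their condensin II counterparts was tested on the ratio of the paired genes within each library, which does not depend on scaling. A difference in calls between the complexes is not itself such a test. With 3 libraries against 3, the two-sided exact permutation test cannot give a p-value under 0.1. The log2 ratio of Ncapd2 to Ncapd3 counts was 0.83, 0.77 and 1.13 in WT and 0.65, 0.09 and 0.35 in ΔrsCBE. The groups did not overlap, and the ratio was 0.54 lower in ΔrsCBE on the log2 scale, a difference written as ΔrsCBE minus WT of -0.54 (exact p = 0.1, the smallest possible). The ratio of Ncapg to Ncapg2 was -0.37, -0.24 and -0.99 in WT and -1.11, -1.44 and -1.09 in ΔrsCBE, a difference of -0.68 without overlap (exact p = 0.1). The ratio of Ncaph to Ncaph2 was 0.15, 0.00 and 0.48 in WT and -0.29, 0.04 and -0.93 in ΔrsCBE. This kleisin ratio overlapped between the groups, since ΔrsCBE replicate 2 exceeded WT replicate 2, and its difference of -0.60 had an exact p of 0.2. All 3 differences were below 0, and with this exact test none could pass the threshold at 3 libraries against 3. Over the 4 ratios compared, including that of Top2a below, the Benjamini-Hochberg adjusted exact p-values were 0.133, 0.133, 0.2 and 0.133.

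Top2a fell, while its paralog Top2b, which encodes the type II topoisomerase expressed also in resting cells, differed little. Top2a (chromosome 11, 98992943 to 99024189, minus strand) was at 983, 1229 and 1112 CPM in the WT libraries and 415, 657 and 374 CPM in the ΔrsCBE libraries. Every ΔrsCBE library was at 59.3% of the WT mean or below. The log2 fold change was -1.19 (SE 0.19, edgeR adjusted p = 0.00715). The level of Top2b was 737 ± 58.3 CPM in WT against 765 ± 180.0 CPM in ΔrsCBE (SD, n = 3), with a log2 fold change of 0.05 (SE 0.14, edgeR adjusted p = 0.963). The log2 ratio of Top2a to Top2b counts was 0.39, 0.86 and 0.49 in WT and -0.43, -0.44 and -1.17 in ΔrsCBE. The difference of -1.26 had an exact permutation p of 0.1, the smallest possible. Counts also depend on gene length, with 5221 bases of merged exons for Top2a and 10335 for Top2b. Per kilobase the ratio was 2.60, 3.61 and 2.79 in WT and 1.47, 1.46 and 0.88 in ΔrsCBE. Top2a thus exceeded Top2b per kilobase in every library but ΔrsCBE replicate 3. Top2a was not called without ΔrsCBE replicate 1 (edgeR adjusted p = 0.0870) or with sex as a covariate (0.123).

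**Figure D3:**
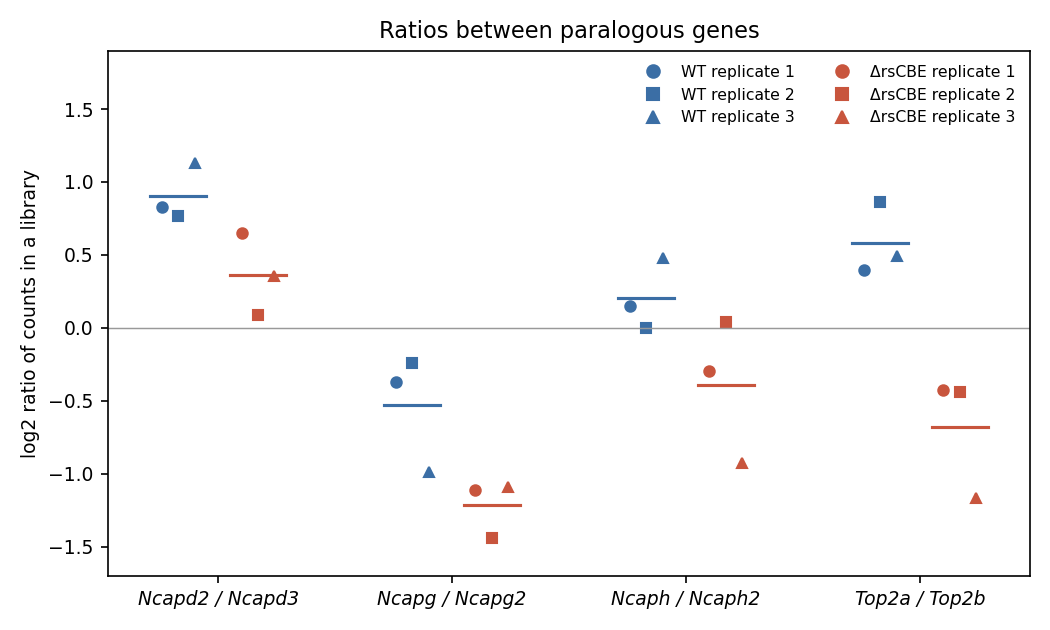
Log2 ratio of counts between paralogous genes in each library, with bars at the means of 3 libraries; blue is WT and red is ΔrsCBE. The groups are separate for Ncapd2 over Ncapd3, Ncapg over Ncapg2 and Top2a over Top2b, and overlap for Ncaph over Ncaph2, where ΔrsCBE replicate 2 (0.04) lies above WT replicate 2 (0.00).

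Mki67 (chromosome 7, 135689784 to 135716361, minus strand) was at 3472, 3759 and 3476 CPM in the WT libraries and 1528, 2418 and 1521 CPM in the ΔrsCBE libraries. It took 0.343% of all counts in WT replicate 1 (95% Wilson interval 0.329% to 0.358%), 0.358% in replicate 2 (0.341% to 0.376%) and 0.337% in replicate 3 (0.328% to 0.348%). In ΔrsCBE replicates 1 to 3 the shares were 0.15% (0.142% to 0.159%), 0.235% (0.226% to 0.245%) and 0.149% (0.140% to 0.157%). The WT shares agree within counting error, whereas ΔrsCBE replicate 2 lay above the other ΔrsCBE libraries beyond it. The log2 fold change of Mki67 was -0.97 (SE 0.16, edgeR adjusted p = 0.010). The call was lost without WT replicate 2 (0.0859), without ΔrsCBE replicate 1 (0.0870) and with sex as a covariate (0.0931). In WT cells labelled as small pre-B, the 10 genes together took 0.591% to 0.637% of the counts, and in ΔrsCBE 0.264% to 0.409%.

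**Figure D4:**
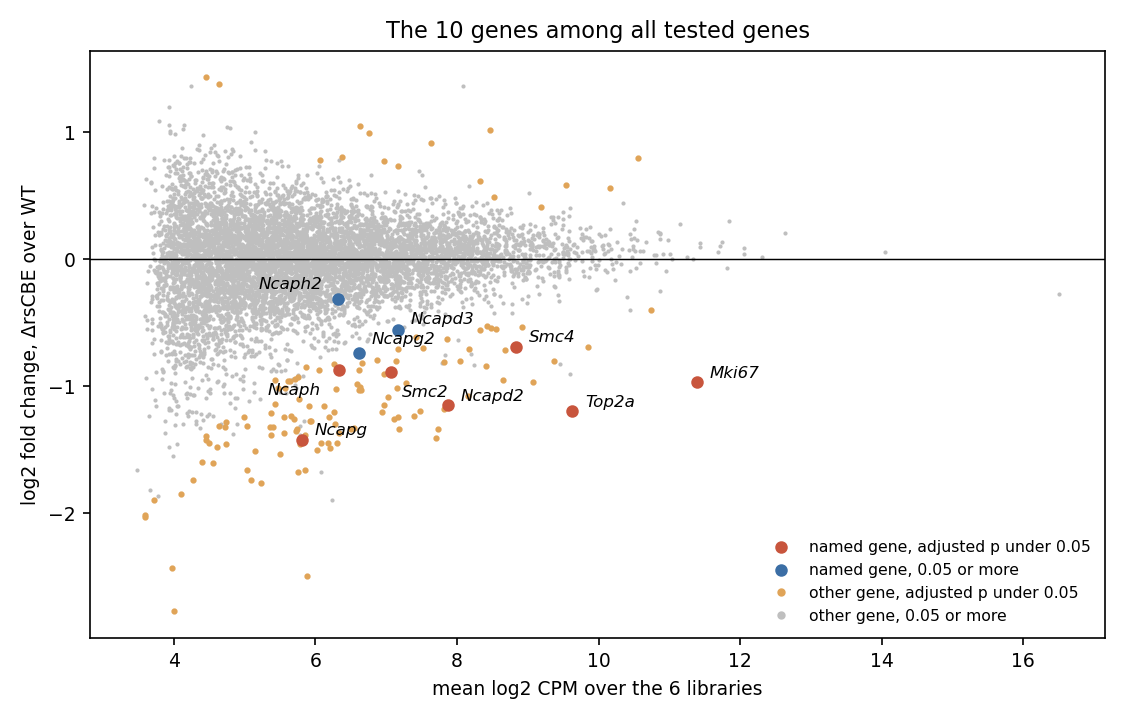
Mean log2 CPM over the 6 libraries (x axis) against the log2 fold change, ΔrsCBE over WT (y axis), for the 7792 tested genes; the 10 named genes are labelled, and small orange points are other genes with an adjusted p-value under 0.05. Mki67 (-0.97) and Top2a (-1.19) are the most abundant of the 10 by count and lie well below 0, while Ncaph2 (-0.32) lies nearest to it.

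Levels were compared between genes per kilobase of merged exons in GENCODE M21, a length that need not match the transcripts present in these cells. In WT, Mki67 was highest with 355 ± 16.4 CPM per kilobase, followed by Top2a with 212 ± 23.5, Smc4 with 130.1 ± 6.79 and Ncapd2 with 69.6 ± 8.29 (SD, n = 3). Each of these was separated from the next without overlap of the WT libraries. The others, Ncaph (37.8 ± 6.15), Smc2 (32.5 ± 1.11), Ncapd3 (31.2 ± 3.16), Ncaph2 (26.7 ± 5.75), Ncapg2 (26.0 ± 1.56) and Ncapg (23.2 ± 6.13 CPM per kilobase), overlapped their neighbours in this order. In ΔrsCBE the first 4 kept their order, with 181 ± 51.3, 92.3 ± 29.3, 80.8 ± 22.6 and 31.6 ± 1.20 CPM per kilobase, and Ncapg was again lowest with 8.15 ± 1.77. Although SMC2 and SMC4 proteins form an obligate dimer, Smc4 exceeded Smc2 per kilobase 3.76-fold to 4.40-fold in WT libraries and 4.17-fold to 5.46-fold in ΔrsCBE libraries. Ncapd2 exceeded Ncapd3 per kilobase by 2.25 ± 0.310 times in WT and 1.55 ± 0.306 times in ΔrsCBE.

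The ΔrsCBE libraries differed more among themselves than the WT libraries for most of these genes. ΔrsCBE replicate 2, which has the female pattern, was the highest of its genotype for 9 genes, with Ncapd2 as the exception, and ΔrsCBE replicate 3, also of female pattern, was the lowest for 7. ΔrsCBE replicate 1, of male pattern as all WT libraries are, lay below every WT library for all 10 genes, at 37.5% of the WT mean for Top2a, 42.8% for Mki67 and 80.6% for Ncaph2. The coefficient of variation of Mki67 was 4.61% in WT and 28.3% in ΔrsCBE, and that of Smc2 3.42% and 30.5%. Ncapd2 went the other way with 11.9% and 3.80%, as did Ncaph2 with 21.6% and 7.34%, and Ncapg with 26.4% and 21.8%. In the libraries of male pattern alone, where ΔrsCBE is 1 library, the log2 fold changes were -1.41 for Top2a, -1.22 for Mki67, -1.09 for Ncapd2 and -0.26 for Ncaph2. With sex as a covariate Smc2, Smc4 and Ncapd2 were called, and Top2a, Mki67, Ncapg and Ncaph were not (edgeR adjusted p-values 0.123, 0.0931, 0.0729 and 0.310). Their log2 fold changes in that fit were -1.41, -1.22, -1.31 and -0.82, with SEs of 0.31, 0.24, 0.35 and 0.32 against 0.19, 0.16, 0.25 and 0.23 without the covariate.

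**Figure D5:**
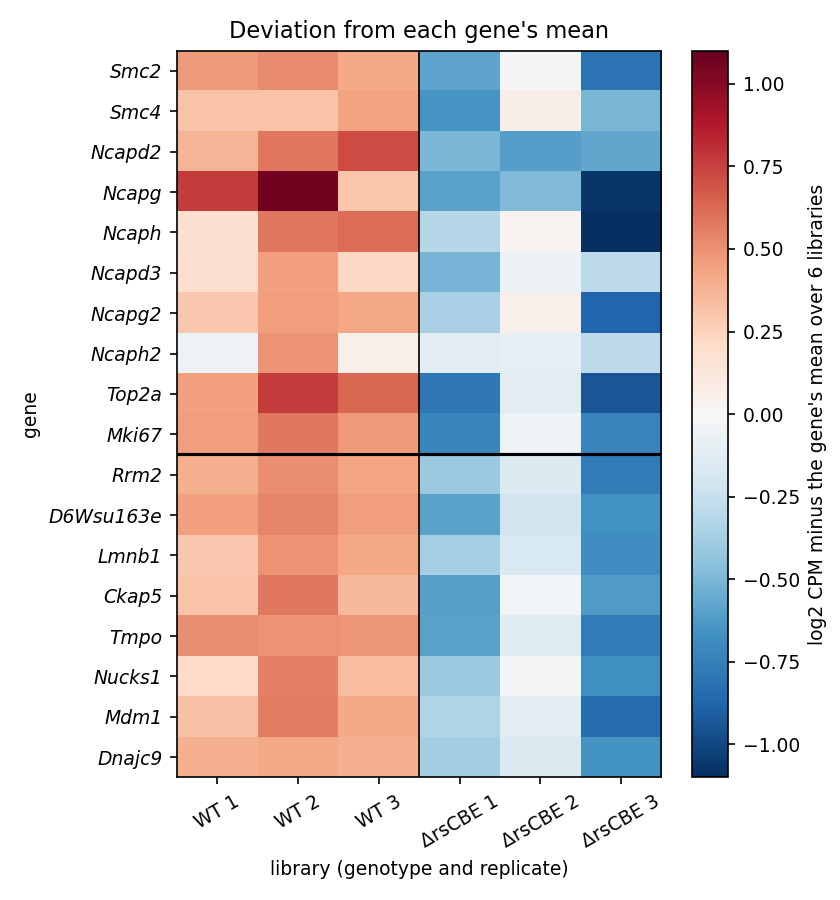
Deviation of log2 CPM from the mean of each gene over the 6 libraries; the upper block shows the 10 genes and the lower block the 8 genes whose pattern was nearest to their mean pattern. ΔrsCBE replicate 2 is paler than ΔrsCBE replicates 1 and 3 in most rows (mean deviation of the 10 genes -0.13 against -0.51 and -0.72), whereas Ncapd2 is lowest there (-0.61).

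The pattern of other genes over the 6 libraries was compared with the mean pattern of the 10 by the root mean square distance between centred log2 CPM values. Among 6406 other genes with a mean of at least 20 CPM the median distance was 0.537. The nearest were Rrm2, a subunit gene of ribonucleotide reductase, at 0.0606, D6Wsu163e at 0.0698, the lamin gene Lmnb1 at 0.0716 and the microtubule polymerase gene Ckap5 at 0.0722. Tmpo, which encodes a lamina-associated protein, Nucks1, Mdm1 and the co-chaperone gene Dnajc9 followed at 0.0870 to 0.0915. The mean pattern was lower in ΔrsCBE, as were those of Top2a and Mki67, so genes picked as nearest were bound to be lower there. Their levels and calls are therefore a description and no separate evidence. Lmnb1 fell from 844 ± 57.3 to 483 ± 86.3 CPM (edgeR adjusted p = 0.000182), and Tmpo from 713 ± 5.79 to 363 ± 86.3 CPM (9.03e-05, SD, n = 3). Nearest to Top2a alone were the tubulin gene Tubb4b (0.0787), the centromere protein gene Cenpf (0.102) and the kinesin gene Kif15 (0.12), and nearest to Mki67 were Tmpo (0.0758), D6Wsu163e (0.0859) and Ckap5 (0.0989). Of these genes, D6Wsu163e did not pass the test (edgeR adjusted p = 0.140). Among the 10 genes themselves Smc2 was closest to their mean pattern (0.0885), and Ncapg (0.339) and Ncaph2 (0.329) were farthest. Each of the 10 is part of that mean, so these distances are not comparable with those of other genes. Ncapg and Ncaph2 also had the fewest counts of the 10 over all libraries, 256 and 372. They had the largest and the smallest fall as well, with log2 fold changes of -1.42 and -0.32. What their distances depend on was not tested.

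Of a list of 20 genes of mitotic chromosomes, mitotic kinases and related regulators 19 were tested, with a median log2 fold change of -1.15. Values below 0 were found for 18 of the 19, against 48.2% of all tested genes. By edgeR 11 were called lower and 0 higher, against 1.49% of all tested genes called lower. The DESeq2 Wald test called 9. The chromokinesin genes Kif4 and Kif22 had log2 fold changes of -1.29 and -1.15 (edgeR adjusted p-values 0.000253 and 0.00127). Of the chromosomal passenger complex, whose kinase phosphorylates condensin, Aurkb, Birc5 and Incenp fell with log2 fold changes of -1.24, -1.33 and -0.71. Cdca2, which encodes a subunit that brings a phosphatase to chromosomes, went from 98.7 ± 4.83 to 35.2 ± 16.7 CPM (SD, n = 3), so that its log2 fold change was -1.45 (edgeR adjusted p = 0.000875). The cyclin gene Ccna2 (-1.24), the mitotic kinase genes Plk1 (-1.32), Aurka (-1.60) and Bub1 (-1.66) and the centromere guardian gene Sgo1 (-1.28) also fell. Aurka was at 6.05, 19.6 and 5.05 CPM in the ΔrsCBE libraries, near the floor in replicates 1 and 3. Hjurp (-0.51), Cdca8 (-1.05), Set (-0.33) and Ppp2r2a (0.25) did not pass. Mcph1, which restrains condensin II and is named here with its values already known, stood at 46.6 ± 11.6 CPM in WT against 22.5 ± 5.14 CPM in ΔrsCBE (SD, n = 3), and its log2 fold change was -0.97 (edgeR adjusted p = 0.103).

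Calls among other SMC complexes, other topoisomerases and proteins of the chromosome periphery are read against the 1.69% of all tested genes that were called and the 10.2% that had an unadjusted p-value under 0.05. Of 20 genes, those of cohesin, its regulators and the SMC5/6 complex and the SMC-like Smchd1, 18 were tested and 1 fell, the meiotic cohesin gene Stag3, from 23.4 ± 1.18 to 4.08 ± 3.54 CPM (edgeR adjusted p = 0.00666; SD, n = 3), near the floor. The DESeq2 Wald test called 0 of these 18 genes and gave no adjusted p-value for 2, and 8 had an unadjusted edgeR p-value under 0.05. The median log2 fold change of this list was -0.14, and Nipbl, Stag2, Smchd1 and Rad21 had 0.09, -0.27, -0.11 and -0.42. By edgeR, 0 of 7 tested topoisomerase-related genes were called, 1 with an unadjusted p-value under 0.05, and the DESeq2 Wald test called 0 as well. In this list Top1, Topbp1 and Top3b had log2 fold changes of 0.00, -0.45 and 0.09. Of 8 nucleolar genes whose proteins coat mitotic chromosomes, as that of Mki67 does, 7 were tested and 0 were called by edgeR or by the DESeq2 Wald test, with 0 at an unadjusted p-value under 0.05. Their median log2 fold change was 0.15, and Ncl, Nop56, Npm1 and Pes1 had -0.17, 0.15, -0.21 and 0.38.

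Genes of DNA replication also had lower values in ΔrsCBE. Of 15 genes 13 were tested, all 13 with log2 fold changes below 0, against 48.2% of all tested genes, and a median of -0.57. By edgeR 2 were called lower, against 1.49% of all tested genes: Rrm2 (-0.87, edgeR adjusted p = 0.00694) and the polymerase gene Pola1 (-0.82, 0.0173). An unadjusted edgeR p-value under 0.05 was found for 9 of the 13, against 10.2% of all tested genes. The DESeq2 Wald test called 1 of the 13 and gave no adjusted p-value for 2. Rrm1, Mcm2, Mcm3 and Mcm7, short of the threshold, had -0.57, -0.47, -0.29 and -0.40. Whether replication genes changed less than the condensin genes was not tested.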

How the data were processed

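Small pre-B cells of 3 WT and 3 ΔrsCBE libraries were profiled by RNA-seq of ribosome-depleted total RNA with a strand-specific kit, per the labels. The deposited table holds raw read counts per gene symbol. The submitters' processing notes name Trim Galore 0.6.10, STAR 2.7.11, HTSeq, DESeq2 and the build mm10; the annotation, the strand setting and the treatment of reads mapping to several places are not given in the sources used here. Pre-B cells in the labels' protocols were sorted by flow cytometry.

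Counts were analysed with edgeR 4.0.16 in R 4.3.3: filterByExpr (minimum count of 10, here 12.1 CPM), TMM factors (0.978 to 1.02), a negative binomial model with genotype alone, glmQLFit (robust) and glmQLFTest, with Benjamini-Hochberg adjustment over 7792 genes at 0.05. All 10 genes exceeded the filter in all 6 libraries. Standard errors and intervals come from the quasi-likelihood F statistic. Log2 CPM used a prior count of 2, and paralog ratios a prior count of 0.5 with exact two-sided permutation tests. DESeq2 1.42.0 was an alternative. Replicates of a genotype were not copies of 1 library (chi-square 1.88 to 3.41 per degree of freedom). The reads carry no stated molecular identifiers, so the Wilson intervals and the floor reflect counting error alone. The intervals of the fold changes also include the spread between libraries.

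Gene coordinates and exon lengths are from GENCODE M21 (GRCm38, the build called mm10), and promoter windows from RefSeq. Of related lists, all called genes and up to 4 others with the highest level were named, with the 8 genes nearest to the mean pattern and the 3 nearest to Top2a and to Mki67; genes overlapping the 10, and promoter motifs, were looked up afterwards. The genes, lists and tests were chosen with earlier results of these data known.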

Additional observations from a re-analysis of the deposited data

How the results depend on the processing

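All 10 genes had log2 fold changes below 0 under each of the 15 alternatives. The count of 7 called genes was 7 with DESeq2 size factors, library size alone or TMM without the 20 most abundant genes, 6 with the DESeq2 Wald test and 8 without a count filter or with a minimum of 1 CPM in 3 libraries. With sex as a covariate, which leaves ΔrsCBE replicate 1 alone to carry the genotype difference, it was 3 (Smc2, Smc4 and Ncapd2), and 87 of all genes were called against 132. In the male-pattern libraries alone it was 7; this fit has 1 ΔrsCBE library, which is assumed to vary as the 3 WT libraries do, and called Ncapd3 (adjusted p-value 0.0256) in place of Ncaph (0.103). The cause of these changes was not tested. Leaving out 1 library gave 4 to 9 called genes, 4 without ΔrsCBE replicate 1 or 3 and 9 without ΔrsCBE replicate 2, and 59 to 187 genes in all, 59 without WT replicate 3 or ΔrsCBE replicate 3. These fits have fewer samples. Over all tested genes, same-numbered libraries did not deviate together (correlations of 0.01, 0.02 and 0.01), so the replicate number was not taken as a pairing. Among the 10 genes, however, replicate 2 was the highest library of WT for 7 and of ΔrsCBE for 9. With a replicate block 8 of the 10 genes, Ncapg2 added (adjusted p-value 0.0391), and 136 of all genes were called; not every library correlated best with its own number. The paralog differences kept their sign with a prior count of 2, in pairs by replicate number and without any 1 library, with exact p-values of 0.1 to 0.5. Among the 10 genes, Ncapg and Ncaph had the lowest counts in a library, 18 and 26. Whether the calls depended on depth was not tested.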
